A study of Mus musculus with 4 samples.

Results

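The Wnt pathway genes described here are the protein-coding genes of the deposited table whose symbols name a Wnt ligand, the secretion factors Porcn and Wls, a Frizzled receptor or co-receptor, an R-spondin or its receptor, a secreted or surface antagonist, or a cytoplasmic, nuclear or planar polarity component of the pathway. The symbols matched 87 of the 52636 genes in the table, and 48 of them reached a CPM (counts scaled to library size) of 1 in at least 1 library. Over all genes 12351 reached that level. The measurements are RNA sequencing counts of Myc-CaP cells, a mouse prostate cancer line whose strain is given as FVB, Hi-Myc transgenic. In that mouse a Myc transgene under a probasin promoter is active in prostate epithelium, and all 4 groups carry it.

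The 4 groups were cells with stably transfected hairpins against FAK (focal adhesion kinase, the product of Ptk2) given 10 µM norepinephrine, the same shFAK cells given vehicle, cells with a negative control hairpin (shNC) given 10 µM norepinephrine, and shNC cells given vehicle, each for 24 hours. Norepinephrine is the transmitter of sympathetic nerves and acts on adrenergic receptors. With 1 library for each group there is no replicate check, and no p-value is given. The intervals below are 99% intervals of the counts alone, and reads amplified by PCR without molecular identifiers are not independent molecules. A difference between shFAK and shNC cells and any other difference between the 2 transfected lines cannot be told apart. In bulk RNA, fewer cells of a type and less RNA per cell cannot be told apart either.

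Wnt ligands are lipid-modified by the acyltransferase encoded by Porcn and carried to the cell surface by the product of Wls. They bind Frizzled receptors together with Lrp5 or Lrp6, and the signal passes through Dishevelled proteins to stop a complex of Axin, Apc and the kinase Gsk3 from marking beta-catenin for destruction. Beta-catenin then enters the nucleus and joins TCF and LEF factors, which are otherwise bound by Groucho repressors of the Tle family. Other ligands, Wnt5a among them, also act through Ror and Ryk receptors and through a planar polarity arm that does not use beta-catenin.

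Library totals were 23410486 counts in shFAK norepinephrine cells, 26016936 in shFAK vehicle cells, 27598343 in shNC norepinephrine cells and 29948640 in shNC vehicle cells. Ptk2 stood at 43.9% of the shNC level in shFAK cells under norepinephrine and at 40.8% under vehicle. The epithelial keratin gene Krt8 had 48 and 50 counts in shFAK norepinephrine and vehicle cells and 165 and 153 in shNC norepinephrine and vehicle cells, while the epithelial genes Krt18, Epcam and Cdh1 stayed under 1 CPM in every library. Fibroblast markers summed to 13.5 and 13.2 CPM in the shFAK libraries and 7.58 and 9.72 CPM in the shNC libraries, with Col3a1, Dcn and Lum at 0 and Pdgfra the 1 marker of 6 past 1 CPM. Leukocyte markers summed to at most 1.4 CPM in any library, and endothelial markers to at most 0.188 CPM. The shFAK norepinephrine library held 119 genes with at least 8 counts there and at most 2 in each other library, against 4, 7 and 9 such genes in shFAK vehicle, shNC norepinephrine and shNC vehicle cells. The part of that library's low counts in any result below was not tested.

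Levels of different genes were compared per length, as TPM (counts divided by gene length and scaled to a fixed library sum), averaged over the 4 libraries with no error attached. Ctnnb1, which encodes beta-catenin, was the most abundant member at 245.8 TPM. Apcdd1, a membrane inhibitor of Wnt signalling, followed at 198.6 TPM, then Dvl1 at 138.6 and Axin1 at 113 TPM, both of the cytoplasmic relay. Pygo2, a nuclear co-factor of beta-catenin, led the nuclear group at 109.1 TPM. Wnt4 led the ligands at 97.4 TPM, Ryk the co-receptors at 75.5 TPM and Fzd6 the Frizzled receptors at 66.7 TPM. Znrf3, a ubiquitin ligase that removes Frizzled receptors from the surface, and the R-spondin receptor gene Lgr6 averaged nearly the same, at 12.4 and 12 TPM. Of the R-spondin module the highest was Lgr4 in shFAK norepinephrine cells, Znrf3 in shFAK vehicle cells and Lgr6 in both shNC libraries. Daam1, a formin of the planar polarity arm, averaged 8 TPM, and Porcn 6.61 TPM. The cells therefore held mRNA for ligands, receptors and the beta-catenin machinery together.

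**Figure D1:**
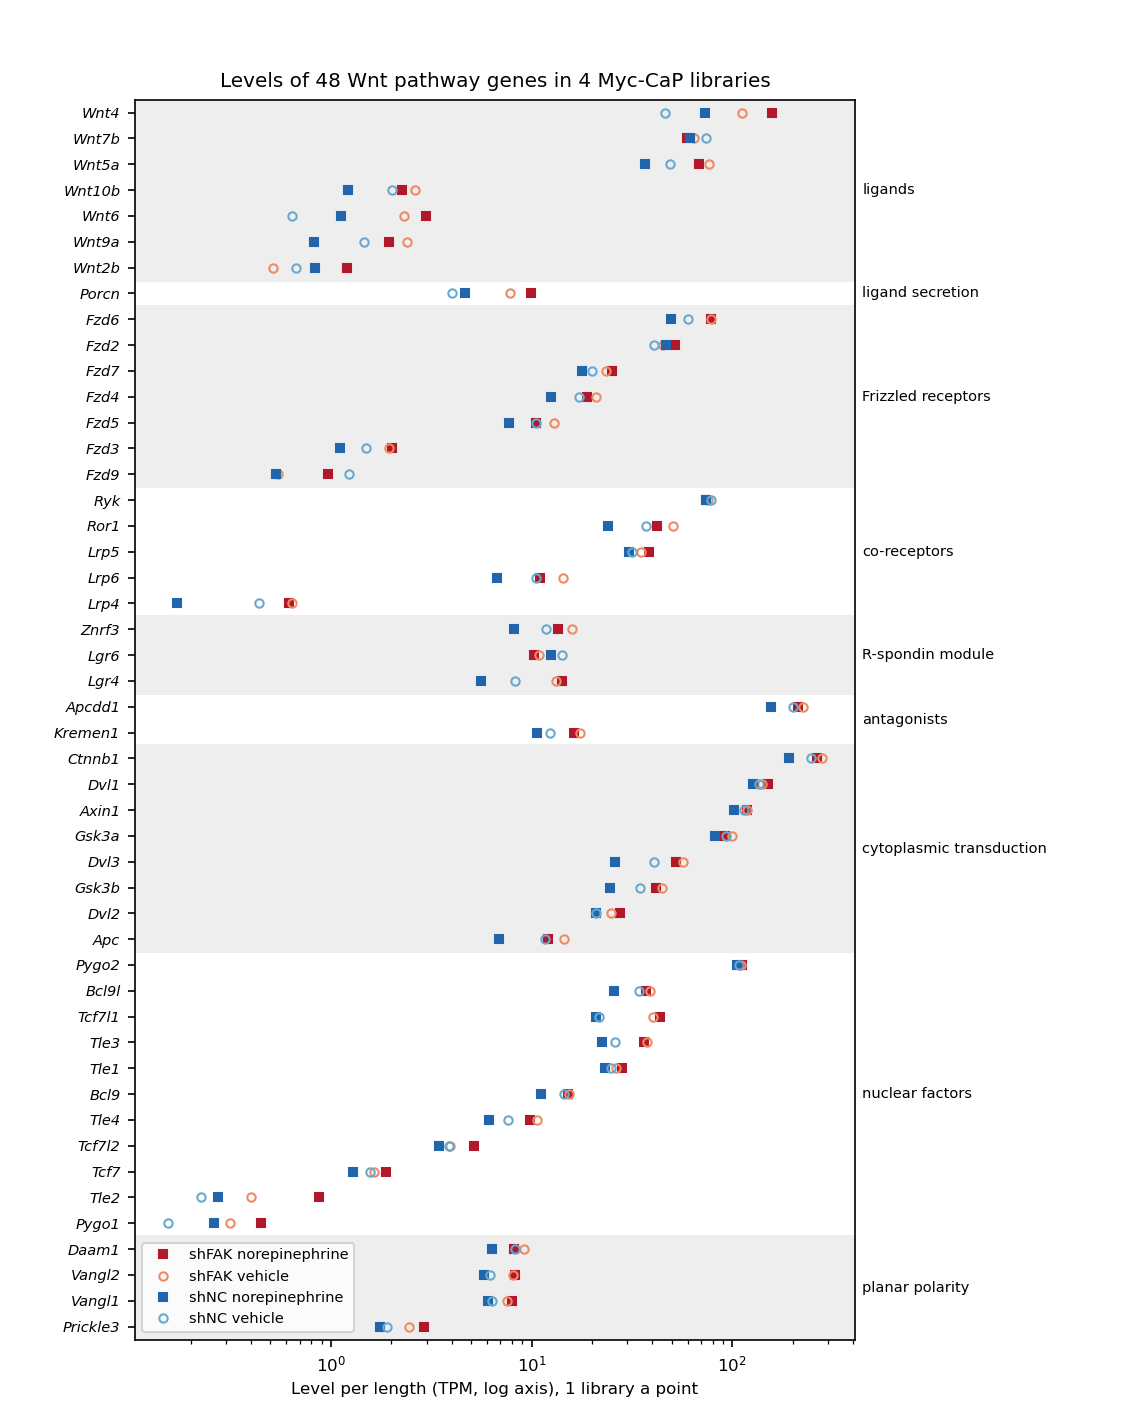
Level per length (TPM, log axis) of the 48 Wnt pathway genes that reached 1 CPM in a library, by role, with 1 point for each of the 4 libraries. Ctnnb1 and Apcdd1 lie farthest right, and Wnt4, Wnt7b and Wnt5a stand apart from the 4 other measured ligands.

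The other 39 members stayed under 1 CPM in every library. Among ligands these were Wnt1 with at most 17 counts in a library, Wnt2 with 14, Wnt11 with 11, Wnt3 with 9, Wnt9b and Wnt10a with 7, Wnt8b with 4, Wnt16 with 3 and Wnt5b with 1. Wnt3a, Wnt7a and Wnt8a had 0 counts throughout, and a count of 0 allows a level of up to 0.101 to 0.125 CPM in these libraries. Secreted antagonists were scarce as a group, with highest counts of 2 for Dkk1, Dkk3 and Dkk4, 1 for Dkk2, 2 for Sfrp2 and 5 for Sfrp1, Sfrp4 and Sfrp5, while the Dickkopf receptor Kremen2 reached 16.

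The R-spondins, which keep Frizzled receptors on the surface by binding Lgr receptors and Rnf43 or Znrf3, were nearly silent too. Rspo2, Rspo3 and Rspo4 had 0 counts and Rspo1 at most 7, and their receptor gene Lgr5 reached 2 and the ligase gene Rnf43 reached 7. Axin2, Nkd1 and Lef1, which beta-catenin is known to induce in many tissues, had highest counts of 4, 3 and 2, and Nkd2 reached 1. The remaining members were Fzd1 at 8, Fzd8 at 4, Fzd10 at 2, Ror2 at 7, Daam2 at 19, Prickle1 at 10 and Prickle2 at 4 counts. Wls had 1 count in shFAK vehicle cells and 0 in the other 3 libraries.

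Summed over those 39 genes the libraries held 159 counts in shFAK norepinephrine cells, 70 in shFAK vehicle cells, 82 in shNC norepinephrine cells and 94 in shNC vehicle cells. The first of these is the library that also held the most genes with counts of their own. Wnt11 was the 1 member among those genes, with 11 counts in shFAK norepinephrine cells and 0 in each other library.

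The 2 lines were compared in norepinephrine and in vehicle separately, as the log2 ratio of shFAK over shNC. A gene was called when it differed by at least 1.5-fold and its counting interval left out 0. Under norepinephrine 12 of the 48 members (25.0%) were called higher in shFAK cells, where 8.11% of all 12351 genes were, and 0 were called lower, where 3.15% of all genes were. Under vehicle 4 members (8.33%) were called higher against 3.69% of all genes, and 0 lower against 1.6%. The members called higher under vehicle, Wnt4, Wnt6, Porcn and Tcf7l1, were also called under norepinephrine, so 4 of 48 were called higher in both, against 2.44% of all genes, and 0 lower in both, against 0.834%. Of the called members, Wnt6 reached 1 CPM only in shFAK libraries and Tle2 only in shFAK norepinephrine cells. They passed the filter only through the line where they were high, so their calls are not independent of it.

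The median of the members lay above that of all genes in both treatments. The members' median log2 ratio was 0.37 under norepinephrine and 0.19 under vehicle, beside 0.02 and 0.00 over all genes. By sign, 41 members were above 0 and 7 below under norepinephrine, beside 6477 and 5874 of all genes. Under vehicle 35 members were above and 13 below, beside 6247 and 6104 of all genes. Longer genes tended to have higher ratios in these libraries, with a Spearman correlation of ratio with gene length across all 12351 genes of 0.466 under norepinephrine and 0.324 under vehicle, and the members had a median length of 5823 bases, against 3981 over all genes. Among the 48 members themselves the correlation was 0.018 under norepinephrine and 0.079 under vehicle. The genes behind each correlation share 2 libraries and are not replicates. With the length trend taken off, the members' median was 0.23 under norepinephrine and 0.10 under vehicle, and the same 4 members were still called in both. Under norepinephrine 9 of the 12 were then still called higher, without Fzd3, Ror1 and Wnt5a, and Lgr6 was called lower.

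**Figure D2:**
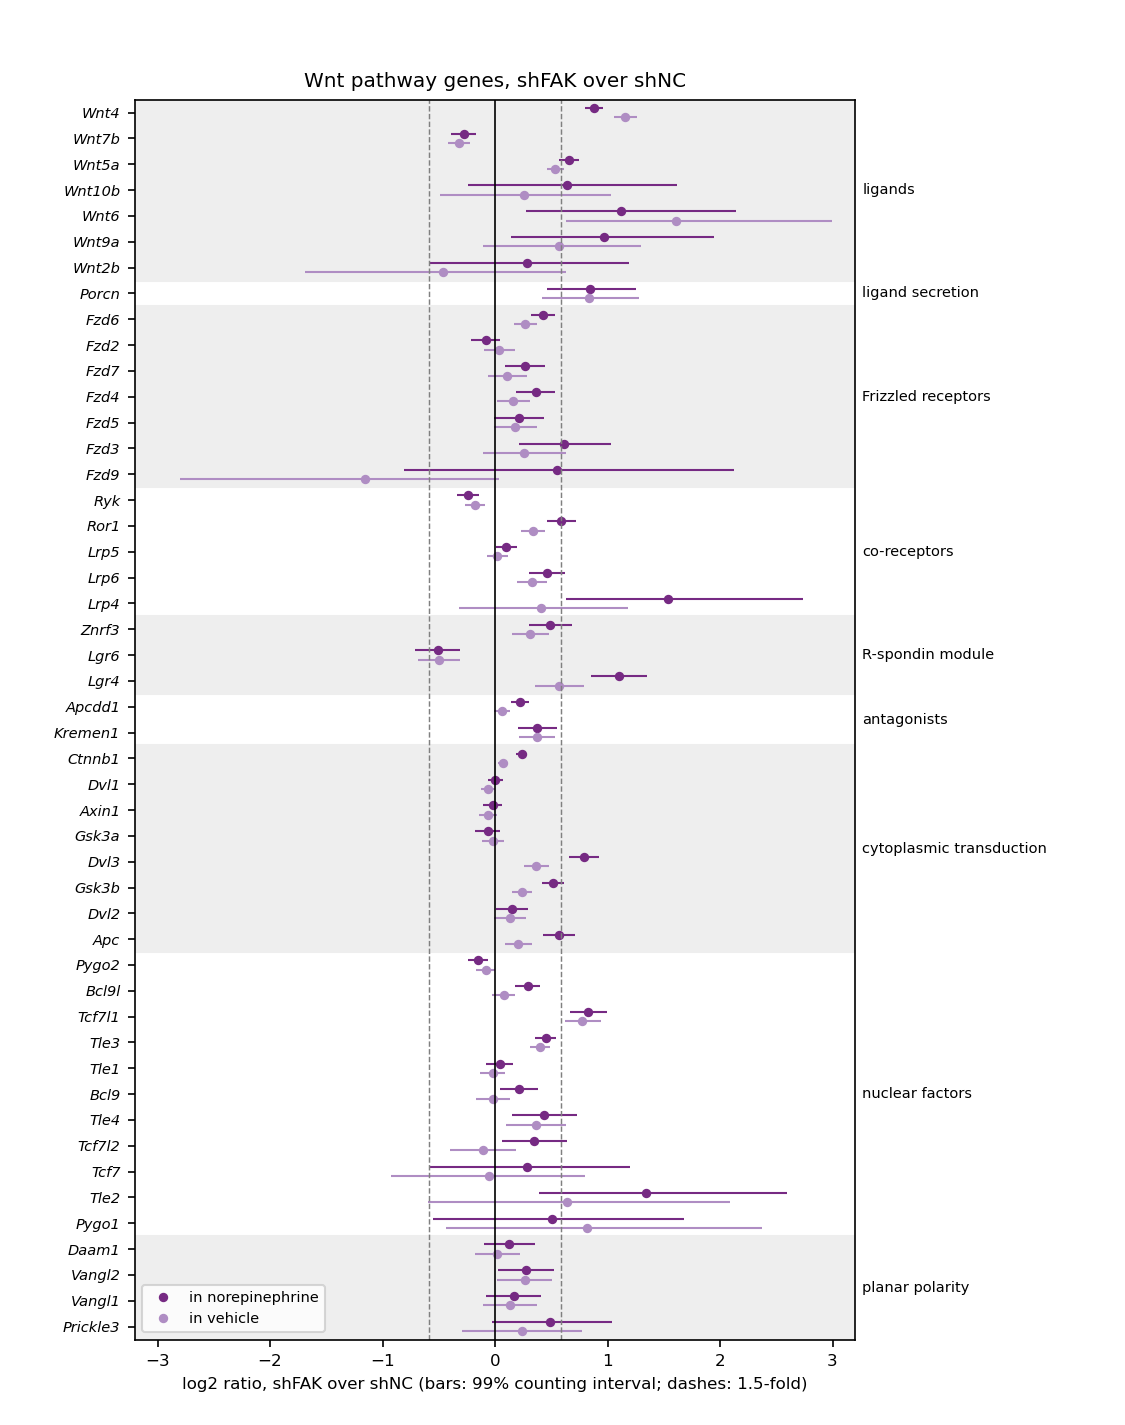
Log2 ratio of shFAK over shNC for each of the 48 Wnt pathway genes, by role, with norepinephrine in dark and vehicle in light purple and bars for 99% counting intervals. Wnt4, Wnt6, Porcn and Tcf7l1 pass the dashed 1.5-fold line in both, and Wnt7b, Ryk and Lgr6 lie below 0 in both.

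Among ligands, Wnt4 and Wnt6 were called in both treatments. Wnt4 (ENSMUSG00000036856, GRCm38 chromosome 4, 137277489 to 137299726), a ligand known for its part in kidney, gonad and mammary gland development, had 5394 counts in shFAK norepinephrine cells, 4138 in shFAK vehicle cells, 3253 in shNC norepinephrine cells and 2068 in shNC vehicle cells. These were 224.5, 156, 122 and 69.8 CPM, so that both shFAK libraries stood above both shNC libraries. Its ratio was 1.84-fold under norepinephrine (log2 0.88, interval 0.80 to 0.96) and 2.23-fold under vehicle (log2 1.16, interval 1.06 to 1.26).

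Wnt6 (ENSMUSG00000033227, GRCm38 chromosome 1, 74771892 to 74785322) is a ligand of epithelia such as skin and kidney duct, and it was scarce here. It had 53 and 45 counts in shFAK norepinephrine and vehicle cells, against 26 and 15 in shNC norepinephrine and vehicle cells, or 2.21, 1.7, 0.975 and 0.506 CPM in the same order. The ratio was 2.17-fold under norepinephrine (log2 1.12, interval 0.27 to 2.15) and 3.05-fold under vehicle (log2 1.61, interval 0.63 to 3.00), and the width of these intervals reflects the low counts. The direction was the same as that of Wnt4 in both treatments.

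The bases just before these 2 ligand genes are shown because both genes were called higher in shFAK than in shNC cells in both treatments. They come from RefSeq's promoter table on GRCm38.p6 and end at the base before each gene's deposited start, on the plus strand, at chr4:137277385-137277488 for Wnt4 and chr1:74771642-74771891 for Wnt6. Capitals mark GC boxes, the letters GGGCGG or their complement CCGCCC, searched on both strands.
Wnt4: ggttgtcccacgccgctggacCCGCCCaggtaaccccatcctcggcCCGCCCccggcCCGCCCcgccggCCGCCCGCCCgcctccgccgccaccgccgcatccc
Wnt6: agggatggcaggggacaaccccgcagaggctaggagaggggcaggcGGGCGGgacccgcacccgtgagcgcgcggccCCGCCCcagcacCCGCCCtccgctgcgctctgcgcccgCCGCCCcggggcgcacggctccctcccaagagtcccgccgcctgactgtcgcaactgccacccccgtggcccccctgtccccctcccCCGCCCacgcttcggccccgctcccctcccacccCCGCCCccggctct

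The Wnt4 window of 104 bases held 5 GC boxes, 2 of them overlapping, where 11.0% of all 32851 promoters held any in the same window. That window is placed from the RefSeq start and leaves off the 146 bases next to it, which for Wnt4 lie inside the deposited gene. Bases next to the deposited start of Wnt4 are thus set against more distant bases of the other promoters. The Wnt6 window of 250 bases held 6, where 32.7% of promoters held any. G and C made up 83.7% of the Wnt4 window and 79.6% of the Wnt6 window, beside medians of 50.0% and 52.4% over all promoters. The TCF and LEF core CTTTGAT, found in 1.4% and 3.21% of promoters in these windows, had no match on either strand, and nor did the cAMP response core TGACG, found in 5.56% and 17.8%. A match is a run of letters and not a bound site, and a missing match says only that the letters are not in this window. Tcf7l1, with fewer than 100 bases outside its deposited span, and Porcn are not shown.

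Wnt5a, the ligand best known for acting without beta-catenin, was at 180.3 and 199 CPM in shFAK norepinephrine and vehicle cells, against 114.4 and 137.1 CPM in shNC norepinephrine and vehicle cells. It was called under norepinephrine (log2 0.66, interval 0.57 to 0.75) and lay just under 1.5-fold in vehicle (log2 0.54, interval 0.46 to 0.62). Corrected for the trend with length and GC content, its log2 ratios were 0.46 and 0.45, under the threshold in both. Wnt7b, a ligand active in epithelia of the lung and kidney, went the other way at 88.8 and 94.6 CPM in shFAK norepinephrine and vehicle cells and 107.7 and 117.8 CPM in shNC norepinephrine and vehicle cells. Its log2 ratios were -0.28 (interval -0.39 to -0.17) and -0.32 (interval -0.41 to -0.22), a difference beyond counting error but under 1.5-fold.

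The 3 remaining measured ligands were near the detection level. Wnt9a was called under norepinephrine, at 2.21 CPM in shFAK and 1.09 CPM in shNC cells (log2 0.97, interval 0.14 to 1.95), and was at 2.64 and 1.76 CPM under vehicle (log2 0.57, interval -0.11 to 1.30). Wnt10b was at 1.79 and 1.13 CPM under norepinephrine and at 2.04 and 1.69 CPM under vehicle, and was called in neither. Wnt2b was at 1.71 and 1.39 CPM under norepinephrine and at 0.716 and 1.013 CPM under vehicle, again with no call.

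Within each library Wnt4, Wnt5a and Wnt7b supplied nearly all ligand mRNA per length, together 96.3% and 96.4% of the summed ligand TPM in shFAK norepinephrine and vehicle cells and 97.1% and 96.7% in shNC norepinephrine and vehicle cells. Wnt4 alone made up 53.3% and 42.7% in the shFAK libraries, against 41.5% and 26.4% in the shNC libraries. The share of Wnt7b ran the opposite way, at 20.0% and 24.6% in shFAK norepinephrine and vehicle cells and 34.8% and 42.4% in shNC norepinephrine and vehicle cells. The most abundant ligand was thus Wnt4 in both shFAK libraries and in shNC norepinephrine cells, and Wnt7b in shNC vehicle cells.

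**Figure D3:**
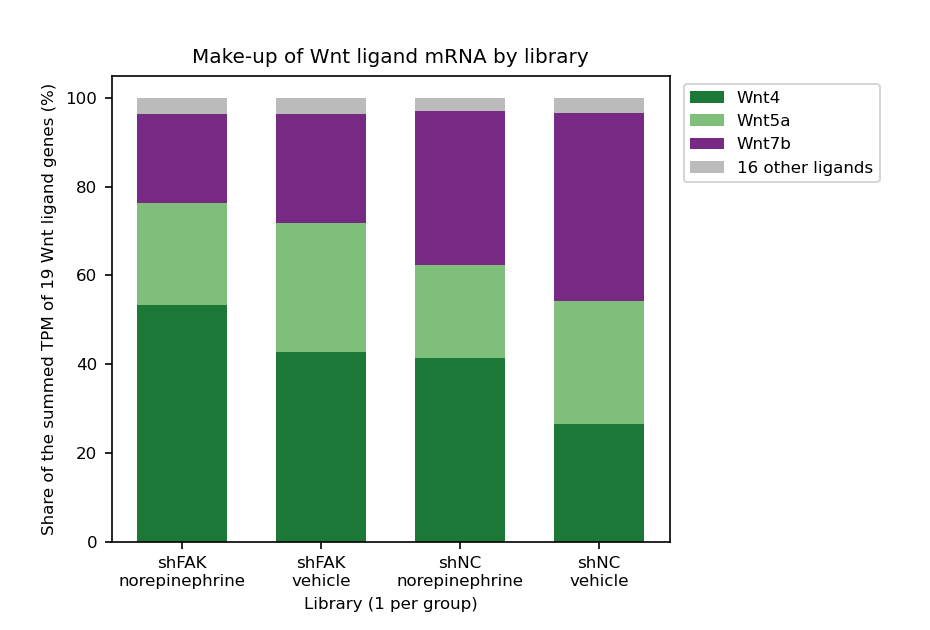
Share of the summed TPM of the 19 Wnt ligand genes held by Wnt4, Wnt5a, Wnt7b and the 16 other ligands in each library. Wnt4 takes 53.3% of the bar in shFAK norepinephrine cells and 26.4% in shNC vehicle cells.

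Porcn (ENSMUSG00000031169, GRCm38 chromosome X, 8193848 to 8206525), the acyltransferase that nearly all secreted Wnt proteins need, was higher in shFAK cells as well. It had 243 and 206 counts in shFAK norepinephrine and vehicle cells, against 149 and 128 in shNC norepinephrine and vehicle cells, or 10.1, 7.76, 5.59 and 4.32 CPM in that order. The ratio was 1.80-fold under norepinephrine (log2 0.85, interval 0.47 to 1.25) and 1.78-fold under vehicle (log2 0.83, interval 0.42 to 1.28). The count intervals of shFAK vehicle cells (6.44 to 9.27 CPM) and shNC norepinephrine cells (4.48 to 6.88 CPM) overlapped.

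Of the 7 measured Frizzled receptors, 1 was called higher under norepinephrine, against 8.11% of all genes, and 0 under vehicle, against 3.69%. Fzd6, which also serves planar polarity, was at 109.8 and 107.9 CPM in shFAK norepinephrine and vehicle cells and at 81.6 and 89.4 CPM in shNC norepinephrine and vehicle cells (log2 0.43 and 0.27). Fzd3, a receptor of axon guidance, was the called member, at 8.7 and 5.66 CPM under norepinephrine (log2 0.61, interval 0.22 to 1.03), and its log2 ratio was 0.28 after correction for length and GC content. Fzd2, Fzd4, Fzd5 and Fzd7 had log2 ratios of -0.08 to 0.36 under norepinephrine and 0.04 to 0.18 under vehicle. Fzd9, with 30 counts or fewer in every library, had log2 ratios of 0.55 under norepinephrine and -1.15 under vehicle, both with intervals that held 0.

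Of the 5 measured co-receptors, Lrp4 and Ror1 were called higher under norepinephrine, against 8.11% of all genes, and none under vehicle, against 3.69%. Lrp4, a receptor of the neuromuscular junction that also binds the Wnt inhibitor sclerostin, had 53 and 59 counts in shFAK norepinephrine and vehicle cells and 19 and 49 in shNC norepinephrine and vehicle cells, or 2.21, 2.22, 0.713 and 1.65 CPM in that order. The low value was that of shNC norepinephrine cells, and the ratio was 2.90-fold under norepinephrine (log2 1.53, interval 0.63 to 2.74) and 1.33-fold under vehicle (log2 0.41, interval -0.32 to 1.18). Ror1, a Wnt5a receptor kinase, was at 82.6 and 96.9 CPM in shFAK norepinephrine and vehicle cells and 54.8 and 76.8 CPM in shNC norepinephrine and vehicle cells (log2 0.59 and 0.34), and its log2 ratio under norepinephrine was 0.49, under the threshold, after correction for length and GC content.

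The signalling co-receptors Lrp5 and Lrp6 had log2 ratios of 0.10 and 0.46 under norepinephrine and 0.02 and 0.33 under vehicle. Ryk, a catalytically inactive receptor kinase, was lower in both pairs, at 113.1 and 113.6 CPM in shFAK norepinephrine and vehicle cells and 133.6 and 128.5 CPM in shNC norepinephrine and vehicle cells. Its log2 ratios were -0.24 (interval -0.34 to -0.15) and -0.18 (interval -0.27 to -0.09), too small for a call.

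The paired R-spondin receptors Lgr4 and Lgr6 moved in opposite directions. Lgr4 was at 28.3 and 26 CPM in shFAK norepinephrine and vehicle cells, against 13.2 and 17.4 CPM in shNC norepinephrine and vehicle cells. It was called 2.14-fold higher under norepinephrine (log2 1.10, interval 0.86 to 1.35) and was at 1.49-fold under vehicle (log2 0.57, interval 0.36 to 0.79), just under the threshold. Lgr6 was at 23.8 and 24.8 CPM in shFAK norepinephrine and vehicle cells, against 33.9 and 35.01 CPM in shNC norepinephrine and vehicle cells, so that all 4 libraries kept the lines apart. Its log2 ratios were -0.51 (interval -0.71 to -0.31) and -0.49 (interval -0.68 to -0.31), under 1.5-fold in both. With the length trend taken off, the ratio under norepinephrine was -0.66, and Lgr6 was called lower. Znrf3 was at 36.2, 41.9, 25.8 and 33.7 CPM in shFAK norepinephrine, shFAK vehicle, shNC norepinephrine and shNC vehicle cells, with log2 ratios of 0.49 and 0.31 and no call.

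**Figure D4:**
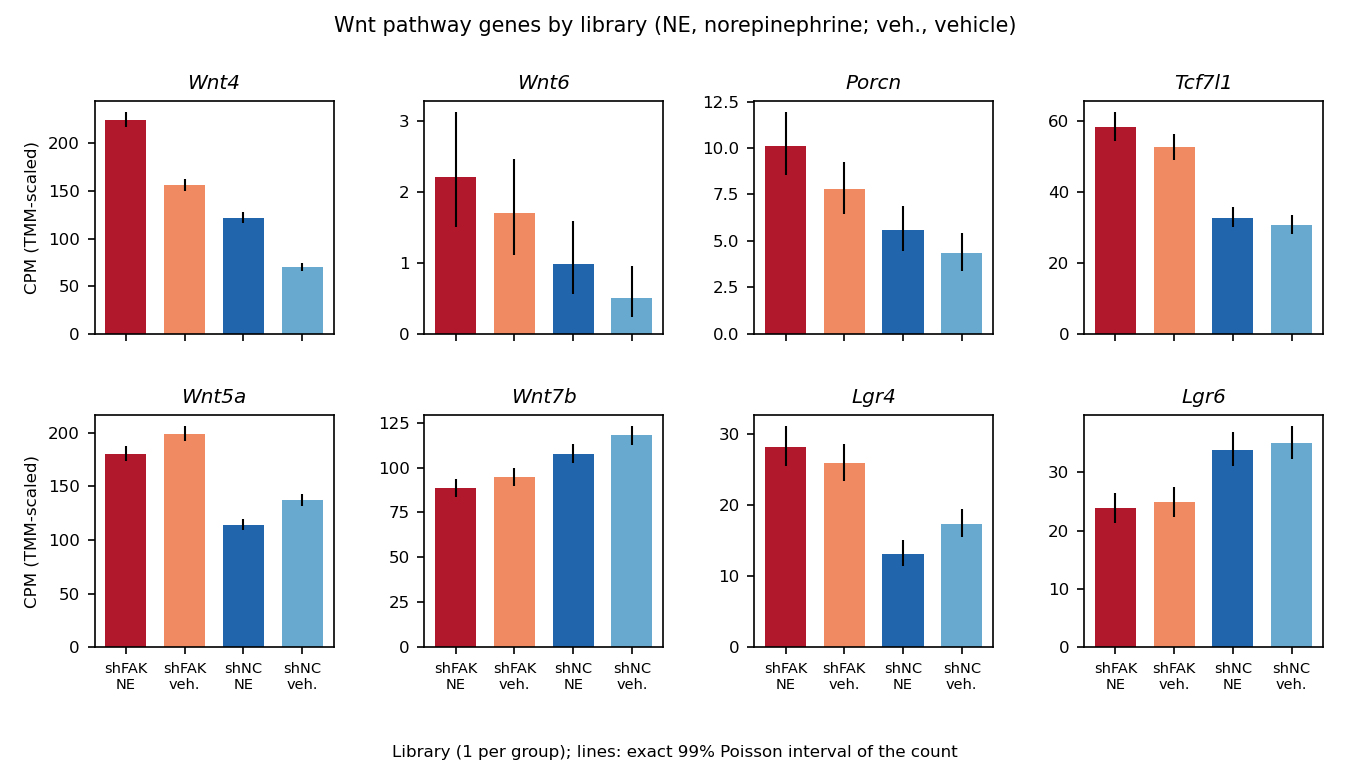
CPM (TMM-scaled, axes from 0) of 8 Wnt pathway genes in each library, with lines for exact 99% Poisson intervals of the counts. Wnt4, Wnt6, Porcn, Tcf7l1, Wnt5a and Lgr4 are higher in both shFAK libraries than in both shNC libraries, and Wnt7b and Lgr6 are lower in both.

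Neither of the 2 measured antagonists was called. Apcdd1 was at 202, 209.7, 173.3 and 201.3 CPM in shFAK norepinephrine, shFAK vehicle, shNC norepinephrine and shNC vehicle cells, with the low value in shNC norepinephrine cells and log2 ratios of 0.22 and 0.06. Kremen1, a receptor for Dickkopf proteins, had a log2 ratio of 0.37 in both treatments, beyond counting error (interval 0.20 to 0.55 under norepinephrine and 0.21 to 0.54 under vehicle).

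In the cytoplasm 1 of 8 members was called higher under norepinephrine, against 8.11% of all genes, and 0 under vehicle, against 3.69%. That member was Dvl3, a Dishevelled gene, at 87.3 and 50.5 CPM in shFAK and shNC cells under norepinephrine (log2 0.79, interval 0.66 to 0.92) and 92.7 and 71.9 CPM under vehicle (log2 0.37, interval 0.26 to 0.48). Its relatives Dvl1 and Dvl2 had log2 ratios of 0.00 and 0.15 under norepinephrine and -0.06 and 0.13 under vehicle. Ctnnb1 was at 464.5 and 484.3 CPM in shFAK norepinephrine and vehicle cells and 394.2 and 461.6 CPM in shNC norepinephrine and vehicle cells (log2 0.24 and 0.07). The destruction complex genes Apc, Axin1, Gsk3a and Gsk3b had log2 ratios of -0.07 to 0.57 under norepinephrine and -0.06 to 0.24 under vehicle.

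Tcf7l1 (ENSMUSG00000055799, GRCm38 chromosome 6, 72626378 to 72789254) encodes the TCF factor best known as a repressor that holds targets down until beta-catenin arrives, and it was the 1 nuclear member called in both treatments. It had 1398 and 1393 counts in shFAK norepinephrine and vehicle cells, against 873 and 907 in shNC norepinephrine and vehicle cells, or 58.2, 52.5, 32.7 and 30.6 CPM in that order. The ratio was 1.78-fold under norepinephrine (log2 0.83, interval 0.67 to 0.99) and 1.71-fold under vehicle (log2 0.78, interval 0.62 to 0.94), with both shFAK libraries above both shNC libraries. Its relatives Tcf7 and Tcf7l2 had log2 ratios of 0.29 and 0.35 under norepinephrine and of -0.05 and -0.10 under vehicle, with no call.

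Among the Groucho co-repressors, Tle2 was called under norepinephrine from few counts, 44 and 22 in shFAK norepinephrine and vehicle cells and 18 and 15 in shNC norepinephrine and vehicle cells, or 1.83, 0.829, 0.675 and 0.506 CPM. Its high value was that of shFAK norepinephrine cells, with a ratio of 2.54-fold under norepinephrine (log2 1.35, interval 0.39 to 2.60) and 1.55-fold under vehicle (log2 0.64, interval -0.59 to 2.09). The abundant Tle1, Tle3 and Tle4 had log2 ratios of 0.04, 0.45 and 0.44 under norepinephrine and -0.02, 0.40 and 0.36 under vehicle. Pygo2 was at 137.3, 133.6, 152.2 and 141.6 CPM in shFAK norepinephrine, shFAK vehicle, shNC norepinephrine and shNC vehicle cells (log2 -0.15 and -0.08). The scaffold genes Bcl9 and Bcl9l, which join Pygo proteins to beta-catenin, and the scarce Pygo1 were not called in either treatment.

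The 4 measured planar polarity genes were not called in either treatment. Daam1 was at 22.4, 24.6, 20.5 and 24.2 CPM in shFAK norepinephrine, shFAK vehicle, shNC norepinephrine and shNC vehicle cells, and Vangl1, Vangl2 and Prickle3 had log2 ratios of 0.16 to 0.49 under norepinephrine and 0.13 to 0.26 under vehicle.

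A 2-fold rule left Lgr4, Lrp4, Tle2 and Wnt6 under norepinephrine, where 3.25% of all genes passed it in either direction, and Wnt4 and Wnt6 under vehicle, where 1.88% did. Wnt6 was then the 1 member past the rule in both.

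Norepinephrine was set against vehicle within each line. In shFAK cells 2 members were called higher, against 1.27% of all genes, and 0 lower, against 0.429%. In shNC cells 1 member was called higher, against 1.56% of all genes, and 2 lower, against 2.16%. No member was called in both lines, where 0.154% of all genes were called higher and 0.0891% lower. The members' median log2 ratio was 0.01 in shFAK cells, with 24 above and 24 below 0, and -0.10 in shNC cells, with 17 above and 31 below, beside 0.00 over all genes in both lines. Over all genes 6169 were above and 6182 below 0 in shFAK cells, and 6171 above and 6180 below in shNC cells.

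Wnt4 was the ligand with the clearest difference. It was 1.44-fold higher with norepinephrine in shFAK cells (log2 0.53, interval 0.45 to 0.60), under the threshold, and 1.75-fold higher in shNC cells (log2 0.80, interval 0.70 to 0.91), where it was called. Porcn was at 1.30-fold in shFAK cells (log2 0.38, interval 0.02 to 0.74) and 1.29-fold in shNC cells (log2 0.36, interval -0.09 to 0.83). Wnt6 had log2 ratios of 0.37 and 0.85, both with intervals that held 0, and Tcf7l1 of 0.15 and 0.10. Wnt4 and Porcn therefore ranked shFAK norepinephrine, shFAK vehicle, shNC norepinephrine and shNC vehicle from high to low, as did Wnt6, although for Porcn and Wnt6 some neighbours in that order did not differ beyond counting error.

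The 2 members called in shFAK cells rested on few counts in the library with the excess of low-count genes. Wnt2b, a ligand of eye and gut development, had 41 and 19 counts with norepinephrine and vehicle in shFAK cells and 37 and 30 in shNC cells, so its low value was that of shFAK vehicle cells (log2 1.17, interval 0.20 to 2.39, in shFAK, and 0.43, interval -0.50 to 1.43, in shNC). Tle2 had a log2 ratio of 1.08 (interval 0.15 to 2.21) in shFAK cells and 0.37 (interval -0.97 to 1.84) in shNC cells. Both passed the 2-fold rule in shFAK cells, where 0.874% of all genes did in either direction. Tle2 reached 1 CPM only in shFAK norepinephrine cells, so it passed the filter through the library where it was high.

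In shNC cells the 2 members called lower were Lrp4 and Apc. Lrp4 had a log2 ratio of -1.13 (interval -2.33 to -0.20) in shNC cells and -0.01 (interval -0.75 to 0.72) in shFAK cells, and was the 1 member past 2-fold in shNC cells, where 0.858% of all genes were. Apc, the scaffold of the destruction complex, was at 64.2 and 76 CPM with norepinephrine and vehicle in shFAK cells (log2 -0.24) and 43.3 and 65.9 CPM in shNC cells (log2 -0.61, interval -0.75 to -0.47). Across all 12351 genes the ratio fell with gene length, with a Spearman correlation of -0.287 in shFAK and -0.487 in shNC cells, and neither was called in shNC cells with the length trend taken off (log2 -0.30 for Apc and -0.91 for Lrp4). After correction for length and GC content, Lrp4 was called (log2 -0.99) and Apc was not (log2 -0.27).

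**Figure D5:**
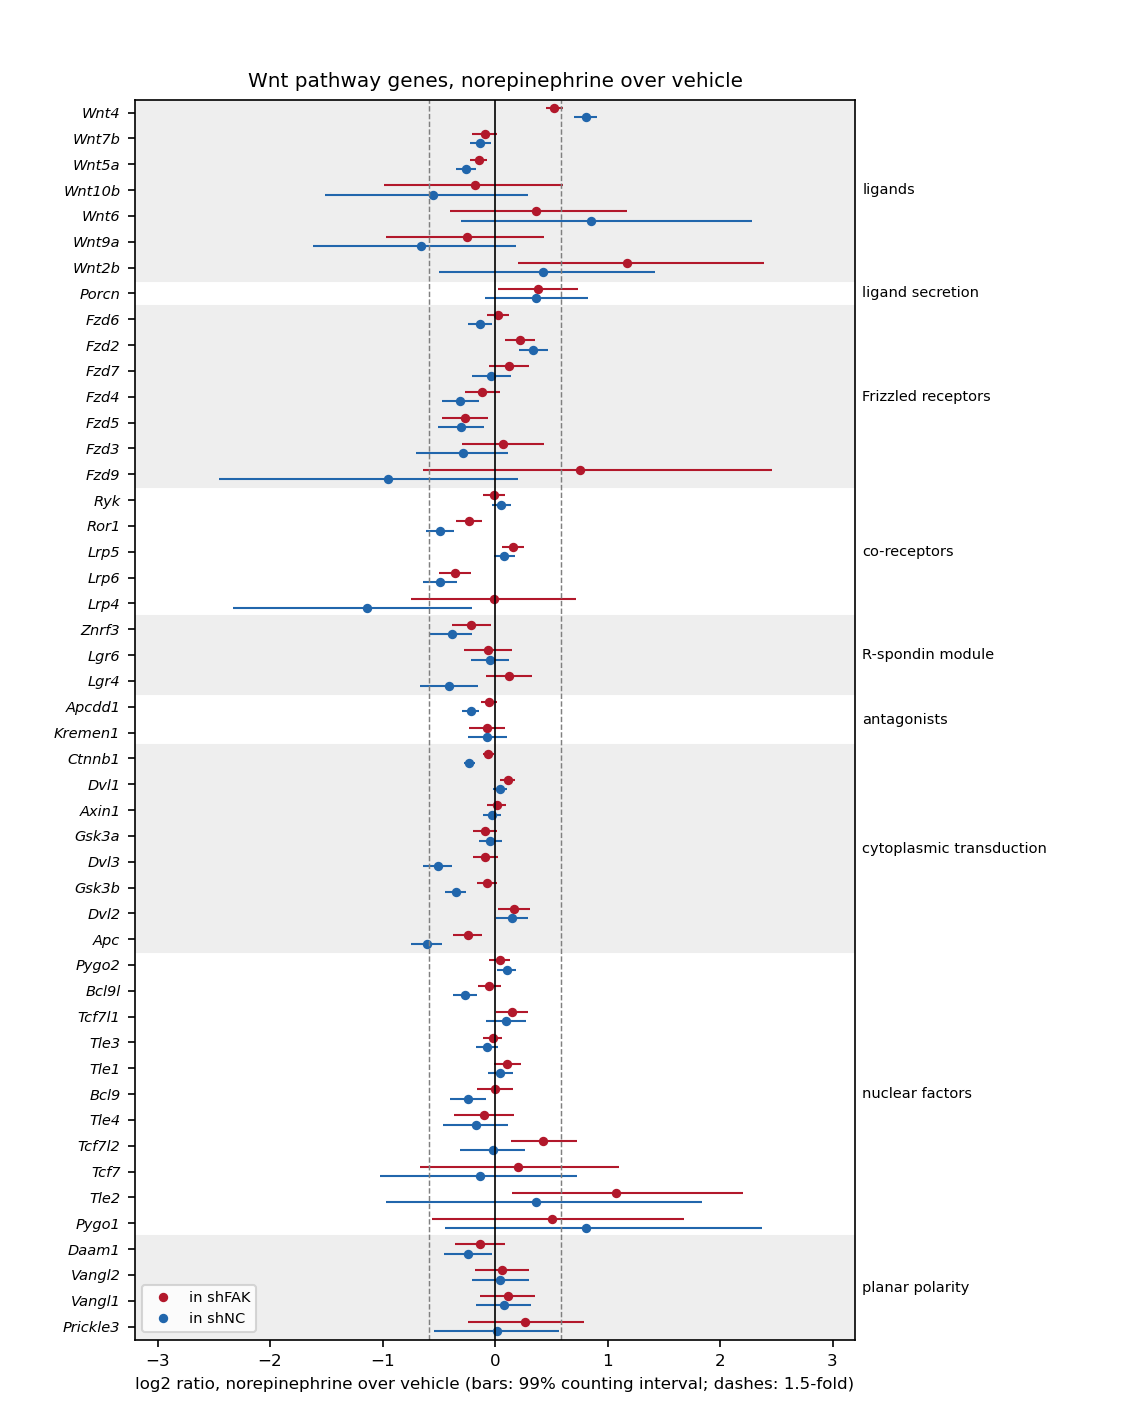
Log2 ratio of norepinephrine over vehicle for each of the 48 Wnt pathway genes, by role, with shFAK cells in red and shNC cells in blue and bars for 99% counting intervals. Wnt4 lies above 0 in both lines, and no member passes the dashed 1.5-fold line with an interval clear of 0 in both.

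The difference between the lines' responses, shFAK minus shNC, is the same quantity as the difference between the hairpin ratios in norepinephrine and in vehicle. By the same rule 0 members were called higher, against 1.07% of all genes, and 0 lower, against 0.672%. Wnt4 had a difference of -0.28 (interval -0.41 to -0.15), a smaller response in shFAK cells. Dvl3 had one of 0.42 (interval 0.25 to 0.59) and Lgr4 one of 0.53 (interval 0.20 to 0.85), beyond counting error and under 1.5-fold. For Porcn (0.01, interval -0.56 to 0.58) and Tcf7l1 (0.05, interval -0.17 to 0.28) the intervals held 0. By sign 40 members were above 0 and 8 below, beside 6468 and 5883 of all genes. The members' median difference was 0.13, against 0.01 over all genes, and it was 0.06 with the length trend taken off and 0.05 after correction for length and GC content.

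Other genes of the pathway were taken as 5 lists, of which 71 distinct genes reached 1 CPM. The destruction complex and turnover list kept 19 of 19 genes, the secreted or surface modulators 4 of 15, the cytoplasmic modulators 11 of 15, the transcriptional targets of beta-catenin 15 of 22, and the planar polarity and calcium arm 22 of 27. In shFAK over shNC, 9 of the 71 (12.7%) were called higher under norepinephrine, against 8.11% of all genes, and 1 (1.41%) under vehicle, against 3.69%. None was called lower, against 3.15% and 1.6% of all genes, and none was called in both. Tnks, Usp34, Amer1, Ep300, Met and Rock1 were among the 9 under norepinephrine. After correction for length and GC content their log2 ratios were 0.28 to 0.56, under the threshold. The rest of the 9 stayed above 1.5-fold after it. These were Gpc4, at 76.4 CPM in shFAK and 50.2 CPM in shNC cells (log2 0.60, and 0.70 after correction), and the scarce Plcb1 and Camk2b (log2 0.83 and 2.79 after correction). The median of the 71 under norepinephrine was 0.19, and 0.06 after that correction. The 1 under vehicle was Reck, a membrane co-factor of Wnt7 signalling, at 7.42 CPM in shFAK and 4.86 CPM in shNC cells (log2 0.60, interval 0.20 to 1.03), named after its value was seen. Of the 15 measured targets 1 (6.67%) was called higher under norepinephrine, against 8.11% of all genes, and 0 under vehicle, against 3.69%. That target was the receptor kinase gene Met (log2 0.71, and 0.53 after correction). The median log2 ratios of the targets were 0.08 under norepinephrine and 0.13 under vehicle.

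With norepinephrine over vehicle, 2 of the 71 (2.82%) were called higher in shFAK cells, against 1.27% of all genes, namely Camk2b and the planar polarity cadherin gene Celsr2 (log2 0.68). In shNC cells 3 of the 71 were called lower, where 2.16% of all genes were, namely Tnks (log2 -0.59), an enzyme that marks Axin for turnover, Usp34 (log2 -0.87), an Axin deubiquitinase, and the co-activator Ep300 (log2 -0.66). After correction for length and GC content their log2 ratios were -0.28, -0.49 and -0.40, under the threshold. Met, Amer1, Rock1, Gpc4, Celsr2 and these 3 were named after their values were seen. Of the 71 genes, those past 2-fold in a pair were Camk2b and Plcb1. Camk2b, a calmodulin-dependent kinase, had 27 and 0 counts in shFAK norepinephrine and vehicle cells and 2 and 7 in shNC norepinephrine and vehicle cells, and Plcb1, a phospholipase, had 37, 30, 18 and 23 counts in the same order. In both genes the highest count was that of the shFAK norepinephrine library. Camk2b reached 1 CPM only in shFAK norepinephrine cells, the library where it was high. Its calls there, over vehicle and over shNC cells, are therefore not independent of the filter. Plcb1 reached 1 CPM only in shFAK libraries, so it passed the filter through the line where it was called higher.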

How the data were processed

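RNA sequencing counts per gene of 4 Myc-CaP libraries were deposited by the authors as whole numbers, not normalized, with gene length, position and biotype. The submitters' processing notes name the build mm10, the counter featureCounts 1.5.0-p3 and the aligner HISAT2 2.0.5. The annotation release and strand setting are not given in the sources used here. From the counts, CPM (TMM scaling, edgeR 4.0.16, R 4.3.3) and TPM (deposited length) were computed here. Genes with 1 CPM in at least 1 library, scaled by total count, were kept. Log2 ratios used a prior count of 2, and intervals are exact 99% Clopper-Pearson intervals of the 2 counts. The interval of the difference of responses uses a normal approximation. The length trend was a spline with 5 degrees of freedom, and GC content came from the longest GENCODE M21 transcript. Size factors of DESeq2 1.42.0 were an alternative scaling. Members and lists were chosen with earlier results of these data known. Every member past the filter is named, with values in each library for those called in both pairs of a contrast or past 2-fold in a pair, and for the top of each role. Without a stated strand setting, reads of overlapping genes cannot be told apart. The exons of Gsk3a, Dvl2, Fzd5 and Ctnnb1 overlap another gene over 28.3%, 18.3%, 17.8% and 14.6% of their bases, those of Bcl9l over 8.28% and 1.38% with 2 genes, and those of Prickle3, Wnt5a, Tcf7l1, Tle1 and Wnt7b over 5.02%, 4.58%, 4.56%, 2.83% and 2.57%. The gene over Prickle3, Plp2, had 7670 counts in total. Stretches of up to 160 bases of Wnt4, 3.81% of its length, match 200 other genes in minimap2 alignments. Some marker genes of the cell type check are not reported here.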

Additional observations from a re-analysis of the deposited data

How the results depend on the processing

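Over 13 settings, Wnt4, Wnt6, Porcn and Tcf7l1 were the members called in both hairpin pairs, except that scaling by library size added Lgr4 for 5, a minimum of 5 CPM in a library or on average removed Wnt6 for 3, and the 2-fold rule left 1. The 2-fold rule gave 2 members called in the hairpin pair under vehicle, 4 under norepinephrine and 1 for norepinephrine in shNC cells. The count of 12 for the hairpin under norepinephrine ran from 8 to 14, calls in either direction, under the other settings. It was 10 after correction for length, with or without GC, and these included Lgr6 as a lower call. For norepinephrine in shFAK cells the count of 2 became 5 with no filter and 0 with either minimum of 5 CPM. For norepinephrine in shNC cells the count of 3 became 1 with the length trend taken off, was 3 after correction for length with GC (Fzd9, Lrp4 and Wnt4, without Apc) and became 5 with 95% intervals. That count was 2 with upper-quartile scaling, without Apc, and 2 with either minimum of 5 CPM, without Lrp4. For the difference of responses the count of 0 became 1 with a prior count of 0.5 (Fzd9) and 2 with 95% intervals (Fzd9 and Lrp4). The median hairpin ratio under norepinephrine, 0.37, became 0.23 after correction for length and likewise 0.23 after correction for length with GC, and that under vehicle, 0.19, became 0.00 with no filter. The setting with no filter takes in the 39 members under 1 CPM. Those with 0 counts in both vehicle libraries, Axin2 among them, have a log2 ratio of 0 under vehicle. Their part in the change was not tested. Scaling by library size moved the median of all genes under norepinephrine to 0.11 in the hairpin pair. The settings for length with GC, for a mean of 5 CPM and for the difference of responses were chosen after seeing the data. No paired analysis was possible because each group has 1 library, and for the same reason no replicate could be left out. Depth limits the scarce members most, as the wide intervals of Wnt6, Lrp4, Tle2 and Wnt2b show.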

Other observations

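Wls, the carrier that brings Wnt ligands to the cell surface, had 0, 1, 0 and 0 counts in shFAK norepinephrine, shFAK vehicle, shNC norepinephrine and shNC vehicle cells, while the ligand Wnt4 had 5394, 4138, 3253 and 2068 in the same order. On the deposited coordinates (GRCm38 chromosome 3, 159839672 to 159938664) it is the last protein-coding gene of the chromosome in the table. Of its neighbours, Depdc1a had 464, 554, 494 and 593 counts and Lrrc40 had 1694, 1943, 1719 and 2010 counts in the same order, and Rpe65 had 0 in all 4 libraries. The reads were not analysed here.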
